A study of Mus musculus with 20 samples.

Results

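Sham-operated control mice sampled at day 26 were compared with sham-operated control mice sampled at day 21, across all genes measured in fibroadipogenic progenitors sorted from their hindlimb muscle. The comparison used 7 of the 20 libraries of the series, 4 sham controls of day 26 and 3 of day 21. They were chosen by their labels alone, without any measured value. All 7 came from male C57BL/6J mice that had sham surgery and received no tumour cells, and the labels give no age for them and do not say whether animals were pooled. The other libraries of the series are 3 sham controls of day 14, used below as a further reference, and 10 from mice given KPCY cells, a mouse pancreatic tumour line, by injection into the pancreas. The comparison asks how far progenitors of sham-operated mice differ between the late sampling days against which the tumour-bearing mice of the series were set. The labels call the replicates biological, without saying that each is a separate animal. Day and any preparation batch cannot be told apart here, because all day 26 shams have library names beginning with 227 or 235 and all day 21 shams have names beginning with 265. The labels do not say what these numbers stand for.

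Fibroadipogenic progenitors are resident mesenchymal cells of skeletal muscle that lie outside the myofibres, make matrix and growth factors, and support muscle repair. They carry the receptor PDGFRα and the surface protein SCA-1, encoded by Ly6a. Tissue stress and inflammatory ligands are known to switch on immediate-early transcription factors and, through NF-κB, chemokine genes in such stromal cells, together with feedback inhibitors that end the response. Many of those transcripts are short-lived, so that their level follows recent signals closely.

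The deposited counts summed to 17211001 to 25749995 per library at day 26, 21679227 to 26434933 at day 21 and 14245442 to 21035461 at day 14. Levels below are counts relative to library size (CPM), scaled for library composition, and can be compared between libraries but not between genes of different length. Progenitor genes were abundant in all 7 libraries. Pdgfra stood at 1256 to 1410 CPM at day 26 and 1352 to 1443 CPM at day 21, and Ly6a at 1028 to 1460 CPM and 1080 to 1211 CPM. Neither passed the test between the days, with log2 differences of -0.06 ± 0.09 (SE) for Pdgfra and 0.07 ± 0.12 for Ly6a (edgeR quasi-likelihood test, Benjamini-Hochberg adjusted p = 0.805 and 0.855). Markers of the cells that the sort excluded were low. Pecam1, which encodes CD31, was at 4.50 to 16.02 CPM at day 26 and 15.2 to 19.98 CPM at day 21, Ptprc, which encodes CD45, at 0.794 CPM or less in each of the 7 libraries, and Itga7 at 2.18 to 5.42 CPM. In a principal component analysis of the 7 libraries the component with the most variance, 28.3%, placed the day 26 shams at 8.39 to 21.4 and the day 21 shams at -25.6 to -20.4. The next component, 19.2%, set day 26 replicate 4, whose name alone begins with 235, at -31.9 against 7.02 to 16.9 for the other day 26 shams.

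Of 13125 genes tested, 66 rose and 14 fell at day 26 relative to day 21. Together these 80 genes were 0.61% of those tested, 0.503% higher and 0.107% lower. The genes that rose included Ccl2, Ccl7, Cxcl10, Nfkbia, Ier3, Junb, Atf3 and Socs3. A gene was called when its adjusted p from edgeR's quasi-likelihood test was under 0.05. Over all genes the median log2 difference was -0.01, and 37 of the 80 called genes differed by more than 2-fold. The day 26 and day 21 libraries did not overlap for 1720 genes, 13.1% of those tested, with 909 of them (6.93%) higher at day 26, and all 80 called genes were among the 1720. The number of calls rested on single libraries. It was 22 without day 26 replicate 1 and 208 without day 26 replicate 4, which leaves only day 26 libraries named 227. It was 6, 27 and 12 without day 21 replicate 1, 2 and 3. DESeq2 called 323 genes, all 80 among them, and a fit of all 20 libraries called 5. The sign of all 80 differences was the same under each of these omissions, and Ccl2, Nfkbia, Ppp1r15a, Ier3 and Zfp36l1 were called under all 7 omissions. In the 10 other settings tried, Nfkbia was called in 10, and Ccl2, Ppp1r15a, Ier3 and Zfp36l1 in 9 each. Called genes and list members that the naming rule did not reach were named after their values had been seen.

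**Figure D1:**
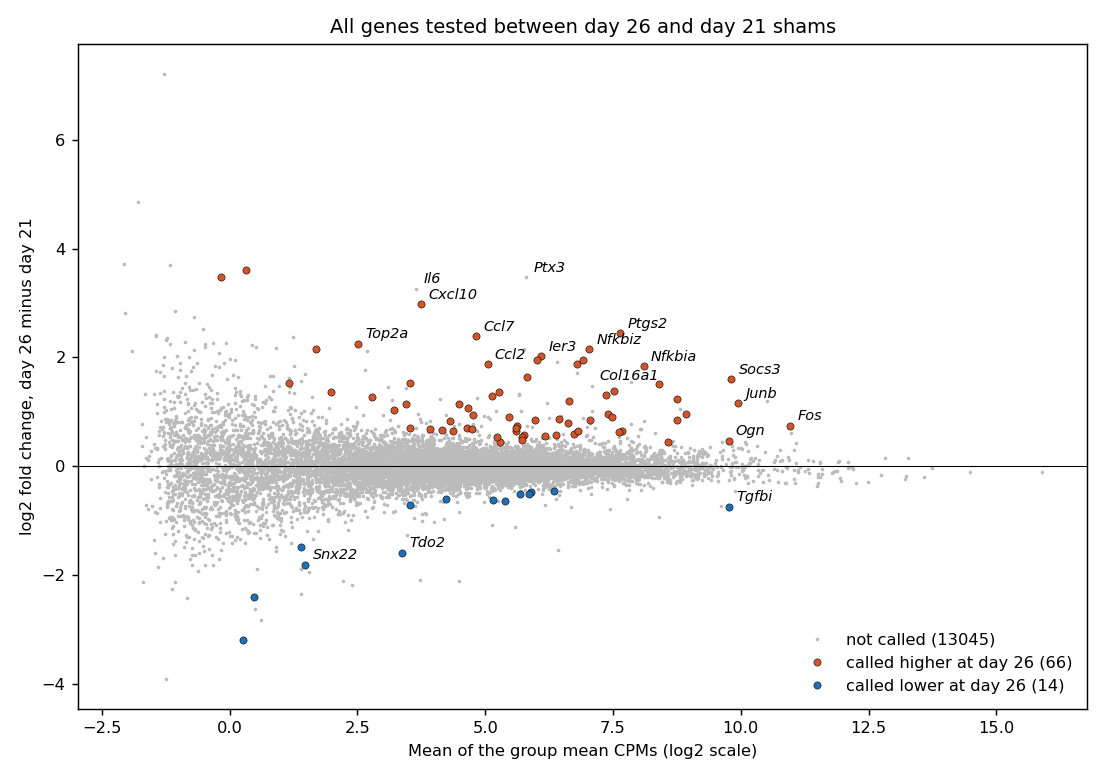
Each point is 1 of the 13125 genes tested, with the mean of the group mean CPMs on a log2 scale on the x axis and the log2 fold change, day 26 minus day 21, on the y axis. The 66 genes called higher at day 26 (orange) lie mostly at moderate to high levels and the 14 called lower (blue) are fewer; Il6, Ptx3 and Col16a1 are labelled although they were not called.

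Chemokines were among the genes that rose most. Of 24 tested genes of the list of chemokines and cytokines 4 rose and none fell, beside 0.503% and 0.107% of all genes tested. The median log2 difference of the list was 0.48, beside -0.01 over all genes. Ccl2, the monocyte attractant that signals through CCR2 (mm10 chr11:82035571-82037453), was at 44.7, 55.3, 62.3 and 45.7 CPM in the day 26 shams and at 13.8, 16.9 and 11.9 CPM in the day 21 shams. The lowest day 26 library lay above the highest day 21 library by more than the spread within either day, and the log2 difference was 1.87 ± 0.15 (adjusted p = 1.9e-04). Ccl7, which lies next to Ccl2 and also draws monocytes (chr11:82045712-82047525), was at 35.3, 50.4, 37.1 and 67.8 CPM against 8.47, 10.9 and 7.75 CPM, a log2 difference of 2.39 ± 0.24 (adjusted p = 0.00445). Cxcl10, an interferon-inducible ligand of CXCR3 (chr5:92346638-92348889), was at 29.4, 37.3, 13.003 and 15.7 CPM against 2.32, 3.87 and 2.85 CPM. Day 26 replicates 1 and 2 were the high ones for Cxcl10, and the log2 difference was 2.98 ± 0.44 (adjusted p = 0.0429). Exons of Cxcl10 overlap those of Art3 on the other strand. Cxcl13, an attractant of B cells, rose by 1.29 ± 0.21 (adjusted p = 0.0319), with day 26 replicate 4 at 73.5 CPM and the other day 26 shams at 39.3 to 43.9 CPM against 18.7 to 23.4 CPM at day 21. Cxcl1, a neutrophil attractant, stood at 126 to 263 CPM against 43.0 to 68.6 CPM without passing the test (adjusted p = 0.0928). The stromal chemokine Cxcl12 and the cytokine gene Csf1 had log2 differences of 0.04 and -0.02 and were not called. The list held 2 calls without day 26 replicate 1, 1 without day 21 replicate 1, and 2 without day 21 replicate 2 or 3.

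Of 22 tested genes of the NF-κB list 3 rose and none fell, beside 0.503% and 0.107% of all genes tested. Nfkbia encodes IκBα, which holds NF-κB in the cytoplasm and is itself an NF-κB target (chr12:55489410-55492647). It was at 415, 541, 323 and 444 CPM in the day 26 shams and at 134, 111 and 113 CPM in the day 21 shams. No day 21 library came near the day 26 range, and the log2 difference was 1.84 ± 0.16 (adjusted p = 2.3e-04). Ier3, a stress-induced survival regulator (chr17:35821684-35822923), was at 109, 147, 85.1 and 98.4 CPM against 26.8, 30.9 and 22.9 CPM, a log2 difference of 2.02 ± 0.18 (adjusted p = 0.00119). Nfkbiz, the inducible nuclear co-regulator IκBζ (chr16:55811375-55838899), was at 265, 278, 156 and 154 CPM against 36.0, 56.9 and 50.5 CPM, a log2 difference of 2.15 ± 0.29 (adjusted p = 0.0319). Day 26 replicates 1 and 2 again exceeded replicates 3 and 4. The median log2 difference of the list was 0.18. The inhibitor genes Nfkbib, Nfkbie, Tnip1 and Irak3 had log2 differences of -0.09, 0.07, -0.06 and 0.01 and were not called. Bcl3 and Zc3h12a, also on the list, had 0.78 and 0.73 and were not called. The NF-κB subunit genes Nfkb1, Nfkb2, Rela, Relb and Rel had log2 differences of -0.11, -0.08, -0.14, -0.26 and 0.13 and were not called. Ptx3, a secreted pattern-recognition protein, had the largest difference of the list, with 137, 150, 52.6 and 69.9 CPM against 7.68, 10.2 and 9.71 CPM. The groups did not overlap, and the gene missed the threshold (log2 difference 3.47 ± 0.48, adjusted p = 0.051). Tnfaip3, the ubiquitin-editing inhibitor A20, was likewise not called at 87.1 to 204 CPM against 30.4 to 42.9 CPM (adjusted p = 0.0786). The count of 3 became 2 without day 26 replicate 1 or any 1 of the day 21 replicates, and 5 without day 26 replicate 2 or 3.

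The promoters of 5 of these and later genes are shown because all 5 genes were called higher and each holds a match to a short motif of NF-κB (GGNNNTTCC) or of the cAMP-responsive element (TGACGTCA). The stretches run 5′ to 3′ on the strand of the gene, end just before its annotated start, and are in lower case with matches on either strand in capitals.
Nfkbia: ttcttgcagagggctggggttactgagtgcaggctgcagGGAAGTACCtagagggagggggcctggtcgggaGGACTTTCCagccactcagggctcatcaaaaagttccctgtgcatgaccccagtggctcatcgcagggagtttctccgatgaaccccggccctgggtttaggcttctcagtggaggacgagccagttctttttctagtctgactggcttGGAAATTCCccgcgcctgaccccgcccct
Ier3: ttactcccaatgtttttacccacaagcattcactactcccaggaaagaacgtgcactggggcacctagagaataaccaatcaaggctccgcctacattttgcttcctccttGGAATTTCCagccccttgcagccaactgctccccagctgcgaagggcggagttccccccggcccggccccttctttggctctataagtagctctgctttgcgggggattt
Cxcl10: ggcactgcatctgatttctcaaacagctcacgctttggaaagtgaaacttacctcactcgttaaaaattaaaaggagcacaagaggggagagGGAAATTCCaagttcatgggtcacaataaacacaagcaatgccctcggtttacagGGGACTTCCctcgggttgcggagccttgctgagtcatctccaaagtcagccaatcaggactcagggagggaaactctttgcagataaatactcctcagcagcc
Ppp1r15a: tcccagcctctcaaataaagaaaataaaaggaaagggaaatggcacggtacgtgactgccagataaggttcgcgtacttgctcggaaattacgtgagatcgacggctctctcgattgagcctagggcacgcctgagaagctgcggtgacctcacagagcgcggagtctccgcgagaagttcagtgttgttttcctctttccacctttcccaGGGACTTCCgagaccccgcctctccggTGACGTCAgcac
Has1: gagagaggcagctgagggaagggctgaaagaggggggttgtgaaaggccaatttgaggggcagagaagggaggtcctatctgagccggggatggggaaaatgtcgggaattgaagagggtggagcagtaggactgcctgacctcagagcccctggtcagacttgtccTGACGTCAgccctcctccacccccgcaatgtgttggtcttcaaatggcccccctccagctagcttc
The sequences are from RefSeq on GRCm38.p6 (mm10): Nfkbia at chr12:55492648-55492897 on the minus strand, Ier3 at chr17:35821463-35821683 on the plus strand, Cxcl10 at chr5:92348890-92349139 on the minus strand, Ppp1r15a at chr7:45526269-45526518 on the minus strand and Has1 at chr17:17855206-17855438 on the minus strand. Nfkbia carried 3 matches to GGNNNTTCC, Cxcl10 carried 2, and Ier3 and Ppp1r15a carried 1 each. Ppp1r15a and Has1 carried 1 match each to TGACGTCA. Of the 66 genes called higher, 50 were in the promoter table with 61 start sites. Within the 250 bases before the start, GGNNNTTCC occurred at 12 of those 61 sites (19.7%), beside 15.7% of all 32851 promoters in the table and 18.1% of those of the genes tested. TGACGTCA occurred at 4 of the 61 (6.56%), in Has1, Maff, Plk2 and Ppp1r15a, beside 1.55% of all promoters and 2.52% of those of the genes tested. Motifs of AP-1 (TGANTCA) and STAT (TTCNNNGAA) were searched too and each occurred at 6 of the 61 (9.84%). Among the genes tested they occurred at 4.46% and 5.91%. A CArG box (CC and GG around a run of A or T) occurred at 4 of the 61 (6.56%), all of Egr2, beside 1.17%. The motifs were chosen after the genes were known, and a match is a description of letters only.

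Immediate-early genes gave the longest list of calls. They are the transcription factors and regulators that are transcribed within minutes of a stimulus without new protein synthesis. Of 30 tested genes 9 rose and none fell, 17 did not overlap between the days with day 26 higher, and 28 had a positive difference. The median log2 difference was 0.63, beside -0.01 over all genes. Of all 13125 genes tested, 0.503% were called higher, 6.93% did not overlap with day 26 higher, and 6398 had a positive difference. Fos, which encodes a subunit of AP-1 (chr12:85473890-85477273), was at 2882, 2837, 2241 and 2072 CPM at day 26 and at 1480, 1585 and 1386 CPM at day 21. All day 26 libraries were higher, and the log2 difference was 0.75 ± 0.13 (adjusted p = 0.0217). Junb, another AP-1 subunit (chr8:84974484-84978718), was at 1465, 1689, 1115 and 1167 CPM against 622, 668 and 527 CPM, a log2 difference of 1.16 ± 0.15 (adjusted p = 0.00595). Its exons overlap those of Prdx2 on the other strand, and whether the counting used strand is not stated in the labels. The zinc-finger factor gene Egr2 rose by 1.14 ± 0.17 (adjusted p = 0.0161) and Ier5 by 0.85 ± 0.12 (adjusted p = 0.00926). Atf3, a stress-responsive repressor, rose by 1.51 ± 0.22, Myc, the growth regulator, by 1.30 ± 0.19, Maff by 0.90 ± 0.14 and the orphan receptor gene Nr4a2 by 1.28 ± 0.25, and Ier3 was described above. Fosb, Jun, Egr1 and Zfp36 had log2 differences of 1.06, 0.30, 0.61 and 1.21 that did not pass the adjusted threshold. Srf and Arc were the only members of the list with a negative difference, -0.12 and -0.43. Without day 26 replicate 4 the list held 14 calls. It held 1, 4 and 3 without day 21 replicate 1, 2 and 3.

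Of the IL-6 and STAT3 list 3 of 23 tested genes rose, beside 0.503% of all genes tested, and none fell. The 3 were Socs3, Pim1 and Junb, the last also counted among the immediate-early genes. The median log2 difference of the list was 0.62. Zfp36l1, which is not on that list and which encodes a protein that binds AU-rich elements and promotes decay of messenger RNA, was at 672, 737, 630 and 546 CPM at day 26 and at 328, 324 and 341 CPM at day 21. The day 21 libraries were nearly alike, and the log2 difference was 0.96 ± 0.11 (adjusted p = 0.00176). Socs3, the feedback inhibitor of the IL-6 receptor gp130 (chr11:117966079-117970047), was at 1697, 1574, 1172 and 989 CPM against 446, 534 and 358 CPM, a log2 difference of 1.60 ± 0.21 (adjusted p = 0.0151). Pim1, a kinase gene downstream of STAT3, rose by 1.07 ± 0.19 (adjusted p = 0.0382). Il6 itself was at 25.2, 40.0, 12.8 and 13.1 CPM against 1.497, 2.64 and 2.93 CPM. The groups did not overlap, day 26 replicates 1 and 2 were the high ones, and Il6 did not pass the test (log2 difference 3.26 ± 0.54, adjusted p = 0.0708). Without day 26 replicate 2 it passed (adjusted p = 0.00422), and over the 7 omissions the highest adjusted p was 0.218. The receptor and transducer genes Il6ra, Il6st, Osmr and Stat3 had log2 differences of -0.19, -0.16, 0.25 and 0.00. The list held no call without day 21 replicate 1 and 1 without day 21 replicate 3. Tnfsf9, the ligand of the co-stimulatory receptor 4-1BB, rose by 1.94 ± 0.21 (adjusted p = 0.00639), from 22.9 to 32.4 CPM at day 21 to 73.3 to 128 CPM at day 26, and its exons overlap those of Gm11110 on the other strand.

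**Figure D2:**
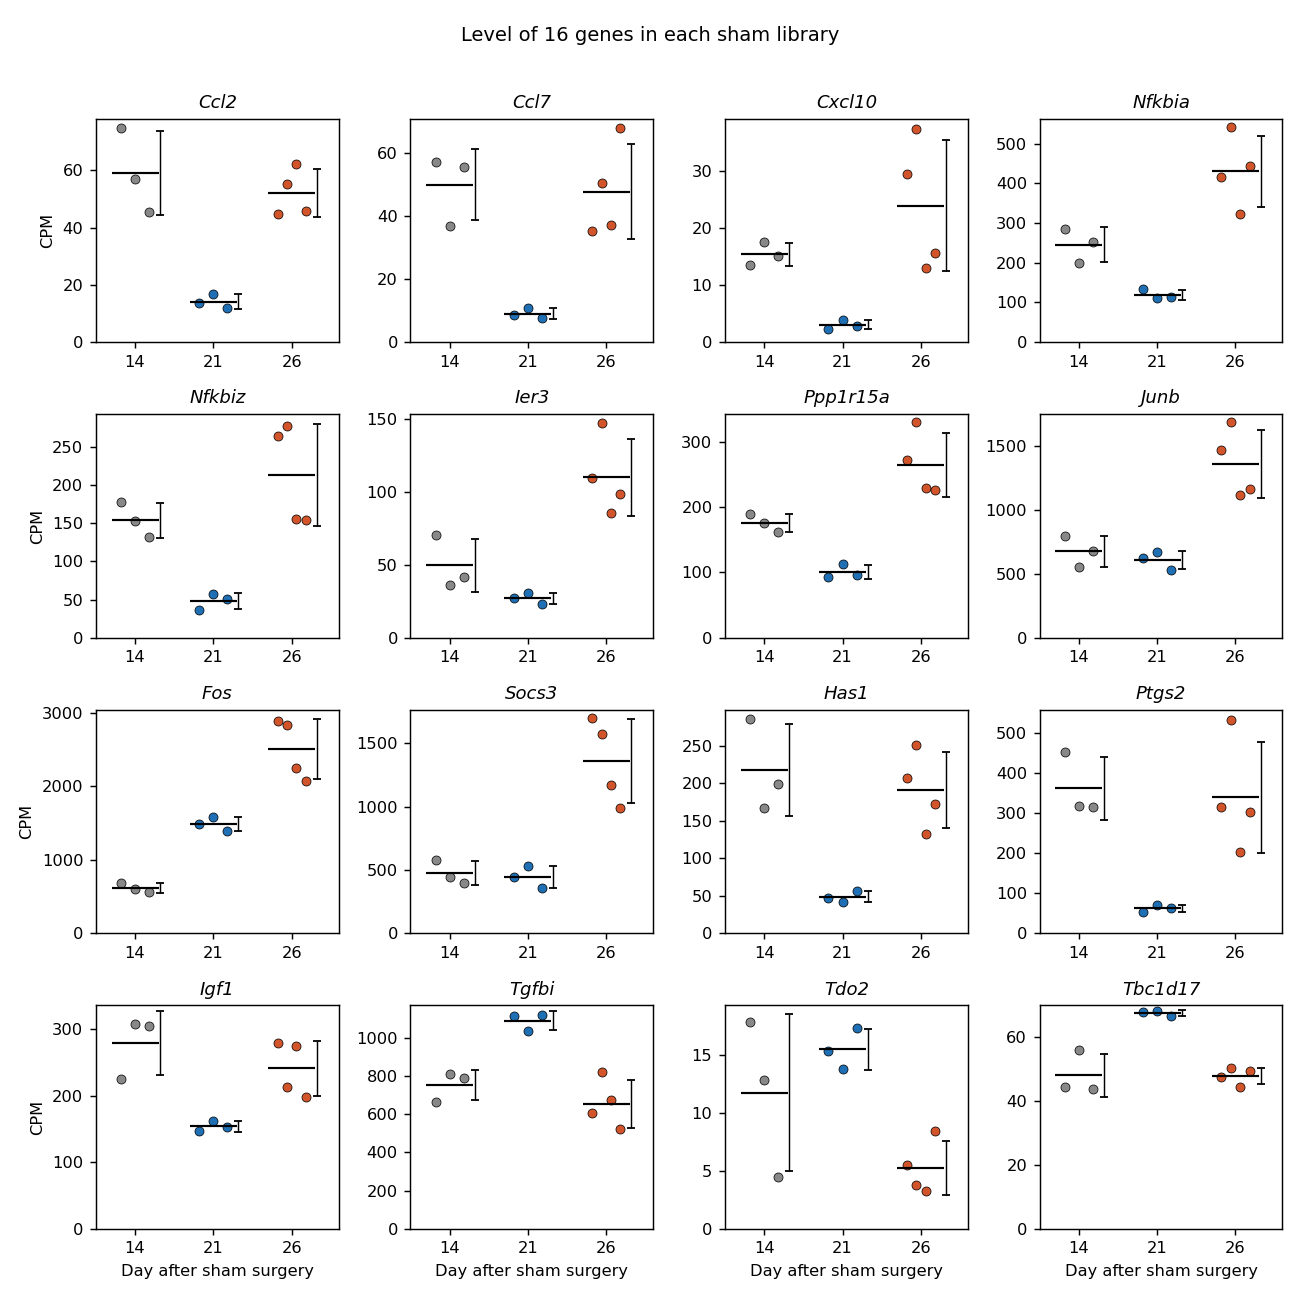
Each panel shows 1 gene, with CPM on the y axis from 0 and the day after sham surgery on the x axis; points are single libraries (3 at day 14, 3 at day 21, 4 at day 26), horizontal lines the mean and bars 1 SD. In the top 12 panels and Igf1 all day 26 libraries lie above all day 21 libraries, in Tgfbi, Tdo2 and Tbc1d17 below them, and the day 14 libraries lie near day 26 for Ccl2, Ccl7, Has1 and Ptgs2 and near day 21 for Junb and Socs3.

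Of 12 tested hyaluronan genes Has1 and Tnfaip6 rose, and of 18 tested prostaglandin genes Ptgs2 rose, beside 0.503% of all genes tested. Has1, a synthase of the matrix sugar hyaluronan (chr17:17843323-17855205), was at 207, 252, 132 and 173 CPM at day 26 and at 47.2, 42.2 and 57.0 CPM at day 21. The groups lay well apart, with a log2 difference of 1.96 ± 0.21 (adjusted p = 0.00639). Tnfaip6, whose product TSG-6 binds hyaluronan, was at 202, 238, 112 and 145 CPM against 36.8, 53.7 and 51.0 CPM, a log2 difference of 1.88 ± 0.28 (adjusted p = 0.0434). These were 2 of 12 tested hyaluronan genes, and the list's median log2 difference was 0.23. Ugdh, which makes a hyaluronan precursor, and Has2 had log2 differences of 0.37 and 0.38 and were not called. Ptgs2, which encodes the inducible cyclooxygenase COX-2 (chr1:150100031-150108227), was at 316, 533, 203 and 303 CPM against 52.4, 70.2 and 62.8 CPM. Day 26 replicate 2 was the highest, and the log2 difference was 2.44 ± 0.34 (adjusted p = 0.0429). It was the only call among 18 tested prostaglandin genes, whose median log2 difference was 0.07. The constitutive enzyme gene Ptgs1 and the synthase gene Ptges had log2 differences of 0.32 and 0.36 and were not called. The hyaluronan calls fell to 1 without day 26 replicate 1, without day 21 replicate 2 or without day 21 replicate 3, and to 0 without day 21 replicate 1. Ptgs2 was called in 2 of the 7 omissions, and no prostaglandin gene was called without day 26 replicate 1, day 26 replicate 4 or any 1 of the day 21 replicates.

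Stress regulators changed in part of their lists. Ppp1r15a, which encodes GADD34, the phosphatase subunit that restores translation after stress (chr7:45522916-45526268), was at 273, 331, 229 and 226 CPM at day 26 and at 92.5, 113 and 96.8 CPM at day 21. The log2 difference was 1.38 ± 0.14 (adjusted p = 7.8e-04), and its exons overlap those of Tulp2 on the other strand. Ddit3, which encodes the stress factor CHOP, rose by 0.69 ± 0.13 (adjusted p = 0.0319), and its exons overlap those of Mars on the other strand. They were 2 of 32 tested genes of endoplasmic reticulum folding and the integrated stress response, where the median log2 difference was 0.12 and Atf4 had 0.30 without a call. Gadd45b and Plk2, which respond to DNA damage and other stress, rose by 1.64 ± 0.25 and 0.95 ± 0.18 (adjusted p = 0.0429 and 0.0492), 2 of 21 tested genes of the p53 and senescence list. Cdkn1a, a direct p53 target, had a log2 difference of 0.26 and was not called. Of 30 tested heat-shock chaperone genes only Dnajb4 rose, by 0.85 ± 0.14 (adjusted p = 0.0199). Of the 30, 26 had a positive difference and 14 did not overlap with day 26 higher. Their median log2 difference was 0.25. Beside these lists, 0.503% of all genes tested were called higher and 6.93% did not overlap with day 26 higher. Hspa1a, the inducible HSP70 gene, was at 409 to 761 CPM at day 26 and 472 to 597 CPM at day 21, a log2 difference of 0.02 ± 0.20. Mt2, a metal-binding metallothionein also induced by glucocorticoids, was at 704, 722, 522 and 473 CPM against 267, 282 and 217 CPM, a log2 difference of 1.24 ± 0.16 (adjusted p = 0.00755). It was the only call of 25 glucocorticoid-responsive and of 15 metallothionein and zinc genes tested. Neither list held a call without day 21 replicate 1. Without day 26 replicate 4 they held 3 and 2 calls, and the glucocorticoid list held 2 without day 26 replicate 3 or day 21 replicate 2. The glucocorticoid target Tsc22d3 had a difference in the other direction, at 208 to 252 CPM against 273 to 570 CPM, and was not called (adjusted p = 0.103). Without day 26 replicate 1, or without any 1 of the day 21 replicates, no p53 gene and no heat-shock gene was called, and without day 26 replicate 4 there were 4 heat-shock calls. The p53 list and the endoplasmic reticulum list held 1 call each without day 26 replicate 3, and the latter also held 1 without day 26 replicate 1 or any 1 of the day 21 replicates.

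Single genes rose in 4 further lists, Igf1, Ogn, Adamts1 and Ndufv2. Igf1, the growth factor that supports muscle fibres (chr10:87858265-87937042), was at 278, 213, 274 and 198 CPM at day 26 and at 147, 162 and 152 CPM at day 21, a log2 difference of 0.64 ± 0.13 (adjusted p = 0.0429). It was the only call of 16 tested genes of the IGF axis. Ogn, a small leucine-rich proteoglycan also called mimecan, was at 1012, 1104, 896 and 1024 CPM against 743, 697 and 733 CPM. Its log2 difference was 0.47 ± 0.10 (adjusted p = 0.0492), and it was the only call of 41 tested matrix glycoprotein genes. Of the 41, 10 did not overlap with day 26 lower and 3 with day 26 higher. Over all 13125 genes tested these counts were 811 and 909. Adamts1, a matrix protease gene, rose by 0.86 ± 0.14 (adjusted p = 0.0199), the only call of 26 tested protease and inhibitor genes. Thbd, which encodes the anticoagulant receptor thrombomodulin, and Foxc1, a mesenchymal transcription factor, rose by 0.46 ± 0.09 and 1.53 ± 0.28 (adjusted p = 0.0429 for both). Ndufv2, a subunit of respiratory complex I, rose by 0.49 ± 0.10 (adjusted p = 0.0429), the only call of 35 tested oxidative phosphorylation genes on the list, whose median log2 difference was 0.02. Uqcrb, a subunit of respiratory complex III outside the list, rose by 0.53 ± 0.11 (adjusted p = 0.0478). It was called in 2 of the 7 omissions, and its exons overlap those of Gm10767 on the other strand. Without day 26 replicate 1, or without any 1 of the day 21 replicates, no gene of these 4 lists was called. The IGF and oxidative phosphorylation lists also had no call without day 26 replicate 3 or with the endothelial covariate, and the protease list held 3 calls without day 26 replicate 4.

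Cell cycle genes were low in all shams. Top2a, the topoisomerase of dividing cells, was at 15.8, 4.42, 8.23 and 9.35 CPM at day 26 and at 2.17, 1.51 and 2.17 CPM at day 21, a log2 difference of 2.25 ± 0.38 (adjusted p = 0.0319). It was the only call of 32 tested cell cycle and replication genes, beside 0.503% of all genes called higher. Of the 32, 29 had a positive difference, beside 6398 of all 13125 genes tested, and their median was 0.44. Without overlap and higher at day 26 were 7 of the 32, beside 6.93% of all genes. The mean of log2(CPM + 0.5) over the list was 3.26, 2.66, 2.91 and 3.31 at day 26 and 2.47, 2.51 and 2.55 at day 21. Prc1, a regulator of the mitotic spindle outside the list, rose by 2.16 ± 0.39 (adjusted p = 0.0315), from 0.642 to 1.81 CPM at day 21 to 3.22 to 6.98 CPM at day 26, and its exons overlap those of Rccd1 on the other strand. Mki67, the proliferation marker, was at 12.6 CPM on average at day 26 and 4.56 CPM at day 21 and was not called (adjusted p = 0.148). In bulk libraries a larger share of dividing cells and more RNA per cell cannot be told apart. Leaving out any day 21 replicate ended the single call of the list, and 3 genes were called without day 26 replicate 2.

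Of 18 tested circadian clock genes only Cry1, a repressor of the clock, was called, with 38.9, 25.001, 30.5 and 29.0 CPM at day 26 and 19.3, 19.7 and 17.5 CPM at day 21 (log2 difference 0.70 ± 0.14, adjusted p = 0.0434). Of the 18, 9 had an unadjusted p under 0.05, beside 1765 of all 13125 genes tested, and the 9 went in both directions. Per2, Nfil3 and Bhlhe40 had log2 differences of 0.93, 0.88 and 0.92, while Nr1d1, Dbp, Per3 and Tef had -1.53, -1.31, -0.65 and -0.52. None of these 7 passed the adjusted threshold, the closest being Bhlhe40 with an adjusted p of 0.052. The activator gene Clock, also among the 9, had a difference of 0.27 and was not called. Arntl, another activator gene and not among the 9, had a difference of 0.22. The time of day of sampling is not given in the labels. Cry1 was called in 2 of the 7 omissions, those of day 26 replicates 2 and 4. The list held 3 calls without day 26 replicate 2, and 4 genes of the list were called without day 26 replicate 4.

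**Figure D3:**
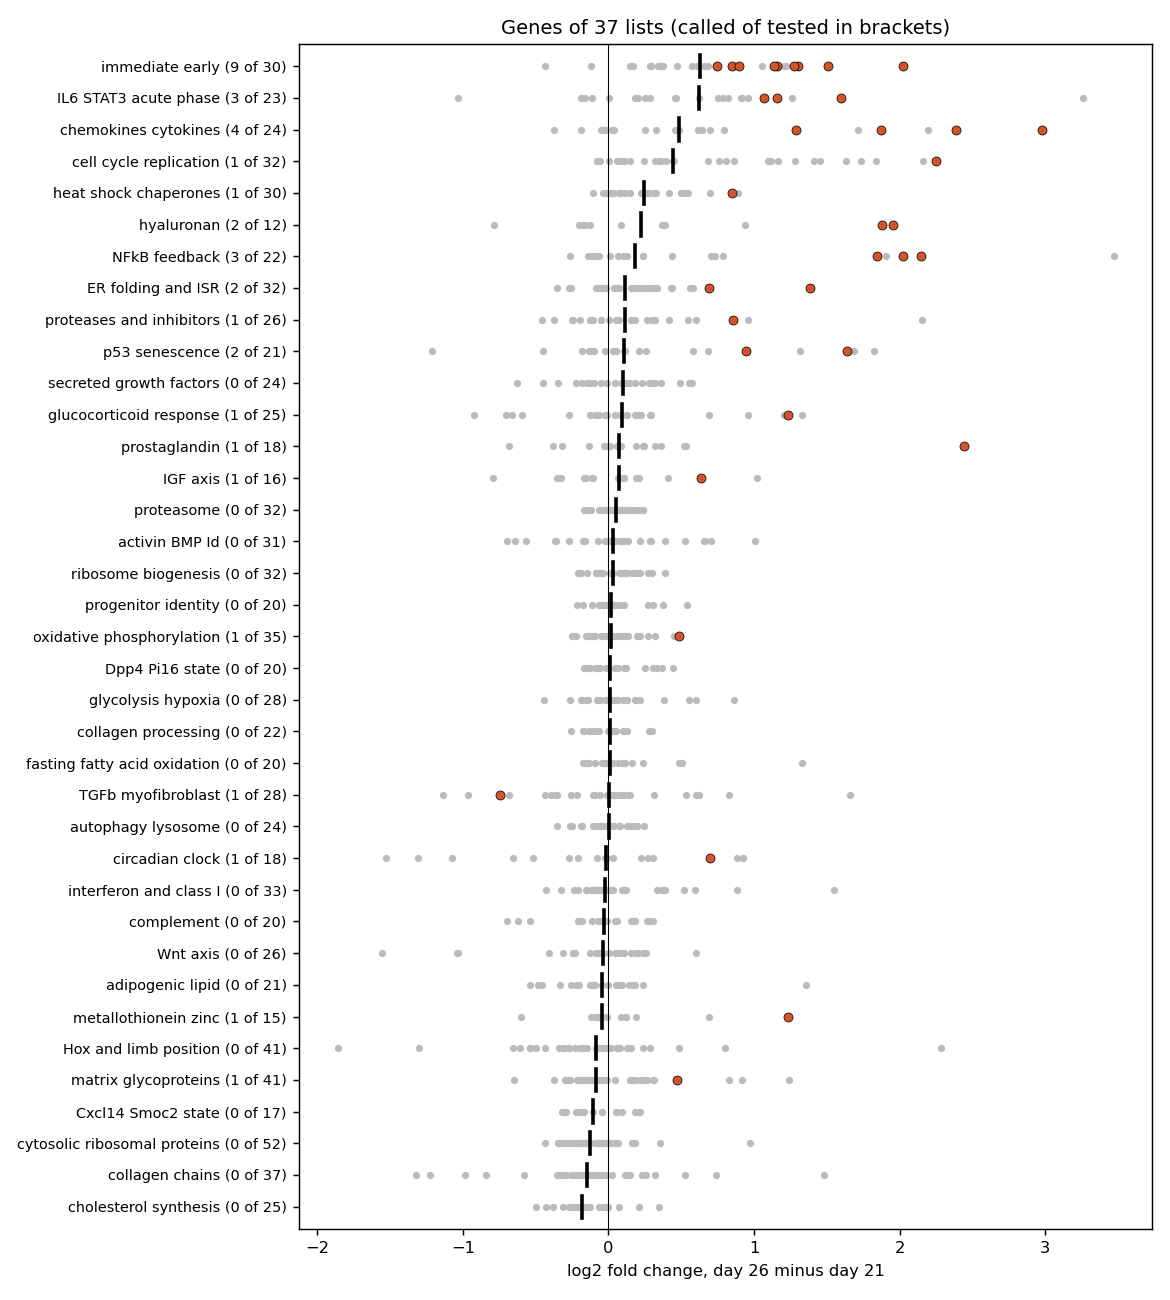
Rows are the 37 gene lists ordered by their median, each point is the log2 fold change, day 26 minus day 21, of 1 tested gene, black bars are list medians and orange points are called genes; the counts in brackets are called of tested. Immediate-early genes (9 of 30) have the highest median and the lists of cholesterol synthesis, collagens and cytosolic ribosomal proteins, with no called gene, have the lowest.

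The 14 genes that fell shared no list with more than 1 call. The number called lower was 2, 13, 1 and 55 without day 26 replicate 1, 2, 3 and 4. It was 0, 2 and 1 without day 21 replicate 1, 2 and 3, and 1 with the endothelial covariate. Tdo2 was called in 3 of the 7 omissions and the other genes that fell in 1 or 2. Tgfbi, a secreted matrix protein induced by TGF-β (chr13:56609523-56639562), was at 605, 820, 673 and 521 CPM at day 26 and at 1115, 1035 and 1123 CPM at day 21, a log2 difference of -0.75 ± 0.13 (adjusted p = 0.0315). It was the only call of 28 tested genes of the TGF-β and myofibroblast list, whose median log2 difference was 0.00. That list held no call without day 26 replicate 1 or 3 or any 1 of the day 21 replicates, and 4 without day 26 replicate 4. Tdo2, which breaks down tryptophan, was at 5.46, 3.77, 3.25 and 8.38 CPM against 15.3, 13.8 and 17.3 CPM, a log2 difference of -1.59 ± 0.27 (adjusted p = 0.0293). Gli1, the transcriptional effector of Hedgehog signalling, was at 31.2, 24.5, 26.0 and 30.3 CPM against 39.4, 50.2 and 38.5 CPM, a log2 difference of -0.62 ± 0.12 (adjusted p = 0.0429), and its exons overlap those of Arhgap9 on the other strand. Tbc1d17, a regulator of Rab GTPases, was at 47.4, 50.2, 44.4 and 49.4 CPM against 68.0, 68.3 and 66.5 CPM. Both groups were tight, and the log2 difference was -0.51 ± 0.08 (adjusted p = 0.0199). Its exons overlap those of Akt1s1 and Il4i1 on the other strand. Cirbp, the cold-inducible RNA-binding protein, fell by 0.63 on the log2 scale (adjusted p = 0.0491), Acacb, the acetyl-CoA carboxylase of fatty acid oxidation control, by 0.72 (adjusted p = 0.0491) and the heparan sulfate proteoglycan gene Gpc4 by 0.47 (adjusted p = 0.0319). Sema3g and Snx22 fell by 1.49 and 1.81 at levels of 6.47 CPM or less, and exons of Snx22 overlap Ppib on the other strand. Vsig10, Athl1 and Wbscr27 fell by 0.50, 0.45 and 0.61. The last 2 were Gm11651, annotated as antisense to Ace, and 7420461P10Rik, both at 3.07 CPM or less in every library.

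Lists that define the progenitor, its states and its collagens had no calls, while the matrix glycoprotein list held Ogn, described above. They were the 20 progenitor identity genes, the 20 genes of the Dpp4 and Pi16 state, the 17 of the Cxcl14 and Smoc2 state, 37 collagen chains and 22 collagen-processing genes, with median log2 differences of 0.02, 0.01, -0.10, -0.15 and 0.01. Among collagens, Col15a1 was at 1241 ± 69.5 CPM (SD, n = 4) at day 26 and 1508 ± 137.5 CPM (SD, n = 3) at day 21, a log2 difference of -0.29 ± 0.10 that was not called (adjusted p = 0.22). Col16a1 was at 127 to 252 CPM against 29.8, 142 and 42.6 CPM, where day 21 replicate 2 overlapped the day 26 shams (adjusted p = 0.395). No gene was called among 33 interferon and class I genes, 20 complement genes, 25 cholesterol synthesis genes, 52 cytosolic ribosomal protein genes or 41 Hox and limb position genes. Cholesterol synthesis genes had a positive difference in 3 of 25, with a median of -0.18 and a range of -0.50 to 0.35, and ribosomal protein genes in 11 of 52, with a median of -0.13. Over all genes tested 6398 of 13125 had a positive difference. The adipogenic, fatty acid oxidation, glycolysis, ribosome biogenesis, proteasome, autophagy, activin and BMP, Wnt and growth factor lists had no call either, with medians between -0.04 and 0.10.

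No tested marker of another cell type was called in 10 lists. The lymphoid and adipocyte lists had no gene that passed the filter on low counts, and the neutrophil and erythroid lists had 1 each. The summed level of 11 mural cell markers was 193 to 252 CPM at day 26 and 314 to 328 CPM at day 21, so the groups did not overlap. Cspg4, Abcc9, Myh11 and Acta2 did not overlap singly, with log2 differences of -0.74, -0.65, -1.02 and -0.96. They were 4 of 10 tested mural markers. Of all 13125 genes tested, 811 did not overlap with day 26 lower. Summed endothelial markers were 621 to 800 CPM against 798 to 842 CPM, and Tek, at 420 CPM on average at day 26, made up much of that sum. Of 15 tested endothelial markers 2 had a positive difference, and of 11 glial markers 3, with medians of -0.41 and -0.69. With the endothelial level as a covariate 79 genes were called, 49 of them among the 80, and the NF-κB list and the IL-6 and STAT3 list held 6 calls each. Macrophage and monocyte markers summed to 21.0 to 31.7 CPM against 17.8 to 34.0 CPM and lymphoid markers to 0.546 CPM or less, with Cd3e, Cd3g, Cd8a and Klrb1c at 0 counts in the 7 libraries. The globin genes, Myod1, Lep, Krt8, Krt18 and Cldn4 were also at 0. Tenocyte markers reached 1882 CPM in day 26 replicate 4 and 715 to 1168 CPM in the other 6 libraries, and myofibre markers 133 CPM in day 26 replicate 2 and 34.1 to 65.5 CPM in the others. The part of mural, glial, tenocyte and myofibre RNA in the calls was not tested.

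**Figure D4:**
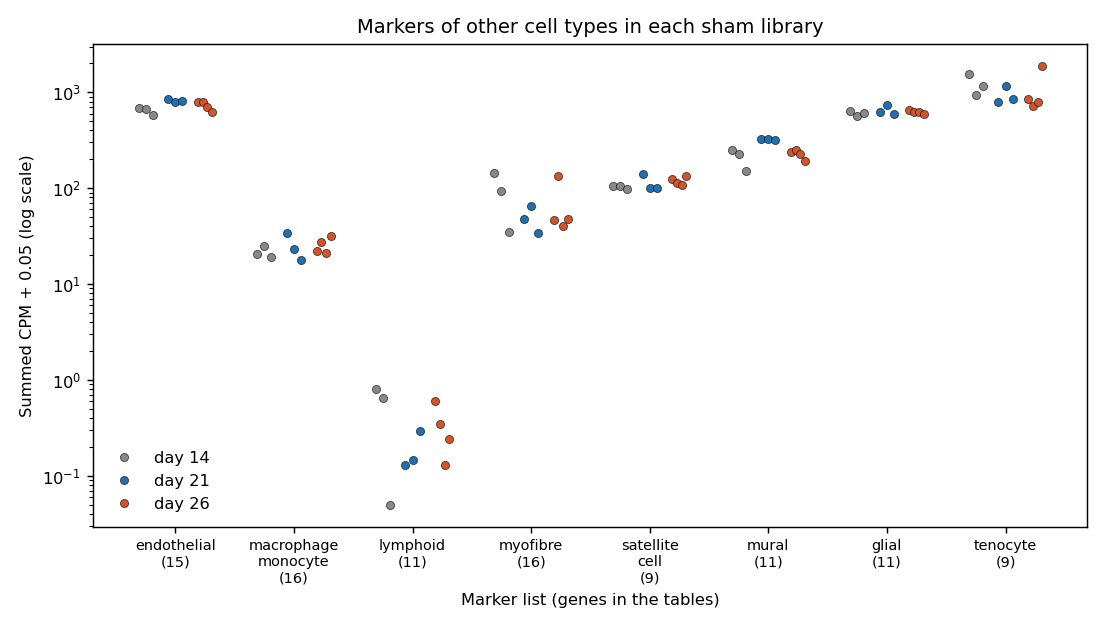
Each point is the summed CPM (plus 0.05, log scale) of a marker list in 1 sham library, with the number of list genes in brackets and the day in colour. Mural markers are lower at day 26 (193 to 252 CPM) than at day 21 (314 to 328 CPM), tenocyte markers are highest in day 26 replicate 4, and lymphoid markers stay under 1 CPM.

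Within day 26 the genes that rose were not uniform. Day 26 replicate 2 was the highest of the 4 for 29 of the 66 and replicate 1 for 22, while replicates 3 and 4 were the lowest for 27 and 25. The mean level of the 30 immediate-early genes, as log2(CPM + 0.5), was 7.90, 8.03, 7.61 and 7.61 in the day 26 shams, 6.97, 7.18 and 7.16 in the day 21 shams and 7.64, 6.92 and 7.54 in the day 14 shams. All day 26 values were above the day 21 values, and the day 14 shams spanned much of that gap. Day 14 replicate 2 was lower than the other day 14 shams in this list. For the NF-κB list the means were 5.57, 5.76, 5.25 and 5.44, then 4.79, 5.0 and 4.9, and at day 14 5.61, 5.40 and 5.48. In this list the day 14 shams lay within the day 26 range.

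The day 14 shams, in libraries named 241, were measured in the same way and are set beside both days. Between day 26 and day 14, 2717 of 13160 genes were called (20.6%), and between day 21 and day 14, 2801 of 13110 (21.4%). The former count was 1653 without day 26 replicate 1 and 1479 without day 14 replicate 3. The latter was 1820, 1783 and 1665 without day 21 replicate 1, day 21 replicate 2 and day 14 replicate 3. Each of these comparisons shares libraries with the comparison of day 26 and day 21, so their values are given side by side only. For the 66 genes that rose from day 21 to day 26, the day 14 mean lay above both in 15, below both in 7, between and nearer day 26 in 23, and between and nearer day 21 in 21. For the 14 that fell it lay between the days in all, 9 nearer day 26 and 5 nearer day 21. Of the 66, 36 were lower at day 21 than at day 14 by the same test, 1 was higher, 27 were not called and 2 were not tested. Of all 13110 genes, 1763 were lower and 1038 higher in that comparison. Against day 14, day 26 was higher in 24 of the 66, lower in 2 and not called in 40. Of all 13160 genes, 1114 were higher and 1603 lower there. The 66 were chosen as higher at day 26 than at day 21, so both sets of counts depend on that choice.

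Several members had their lowest level at day 21 rather than a steady course. Ccl2 was at 74.9, 56.9 and 45.6 CPM in the day 14 shams, and its log2 difference was -0.18 between day 26 and day 14 (adjusted p = 0.50) and -2.07 between day 21 and day 14 (adjusted p = 1.4e-05). Ptgs2 had log2 differences of -0.09 and -2.55 in those comparisons, Has1 -0.18 and -2.16, and Il6 -0.79 and -4.07. Ptx3 was at 136 to 149 CPM at day 14. Fos took another course, at 687, 599 and 560 CPM at day 14, and was higher at day 21 by 1.27 and at day 26 by 2.04. Junb, Socs3 and Tnfsf9 had day 14 means of 674, 474 and 32.3 CPM, close to day 21, with log2 differences between day 21 and day 14 of -0.16, -0.09 and -0.29 that were not called. Ogn was highest at day 14, at 1444, 1770 and 2040 CPM, and Igf1 was at 224, 308 and 305 CPM there, overlapping day 26.

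**Figure D5:**
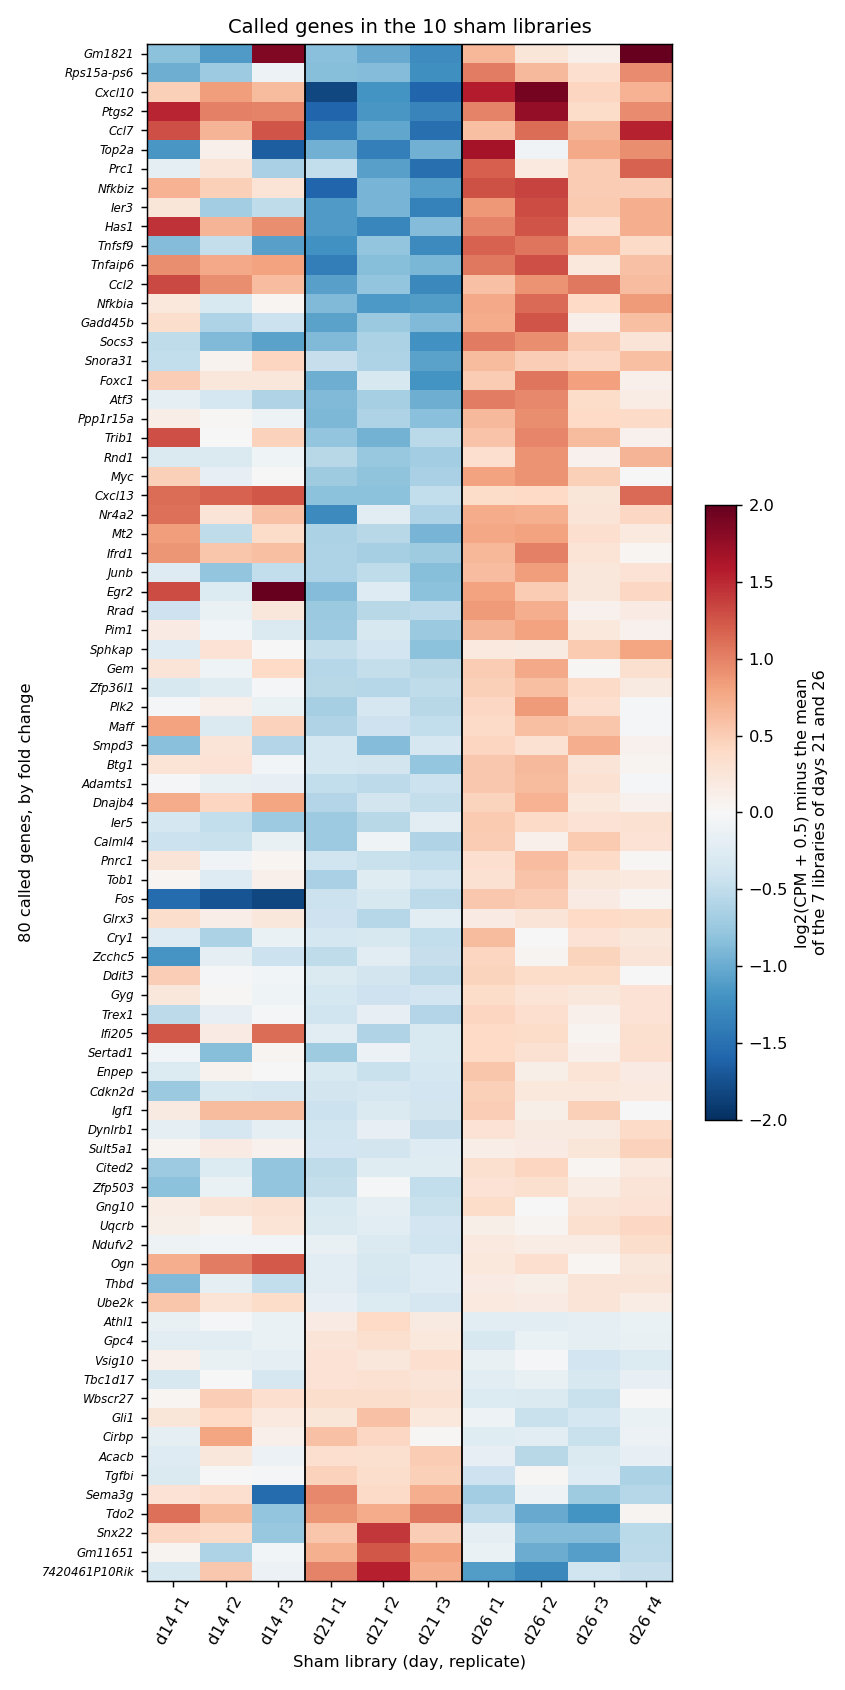
Rows are the 80 called genes ordered by log2 fold change and columns the 10 sham libraries; colour is log2(CPM + 0.5) minus the mean of the 7 libraries of days 21 and 26, limited to -2 and 2. Days 21 and 26 differ by the choice of the genes, while the day 14 columns, which did not enter the choice, resemble day 26 for genes such as Ptgs2, Has1 and Tnfaip6 and day 21 for genes such as Tnfsf9 and Socs3.

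The genes that rose were short. In the GENCODE vM21 annotation 64 of the 66 had a match, with a median span of 6.28 kb, 4 merged exons and 2.8 kb of exon sequence. Over all genes tested 12639 of 13125 matched, with a median span of 24.5 kb (quartiles 10.4 and 59.4 kb), 10 merged exons and 4.52 kb of exon sequence. Short genes with few exons are typical of immediate-early and chemokine genes. For the 14 genes that fell only 78.6% had a match, so the same description is void for them. Of the 80 called genes, 14 share exon sequence with another annotated gene, so that reads of both could be mixed where strand was not used. Rps15a-ps6 and Gm1821, called higher at 5.40 CPM or less, are pseudogenes, and their counts are uncertain because they may include reads of near-identical genes.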

How the data were processed

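The authors deposited raw counts per gene symbol, whole numbers with a different total in each library, in 1 table per day. RNA of freshly sorted progenitors was made into stranded mRNA libraries and sequenced in pairs, per the labels' protocols. The submitters' processing notes name bcl2fastq 2.20, Bowtie, STAR, DESeq2 1.36.0, R 4.2.1 and the build mm10, with no role or order. Which program counted the reads, whether it used strand, and on which annotation were not given in these notes or labels. The tables of days 21 and 26 were joined on 24394 shared symbols; 25 symbols turned into dates in the day 21 table and 27 symbols of the day 26 table were left out.

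Genes with low counts were removed with edgeR's filter (minimum count 10, minimum total 15), libraries were scaled by TMM, and the 4 day 26 shams were compared with the 3 day 21 shams by edgeR's robust quasi-likelihood test (edgeR 4.0.16, R 4.3.3) with Benjamini-Hochberg adjustment over all genes tested. Each standard error is the absolute log2 difference over the root of its F statistic. CPM values use TMM factors over all 20 libraries. On data simulated for this comparison (13125 genes, 3 runs), edgeR recovered 79.7% of genes changed 2-fold and 91.7% of those changed 4-fold, with 6.88% false calls. DESeq2 1.42.0, limma 3.58.1 (voom), other scalings and filters, wider fits, a replicate block, an endothelial covariate and the omission of each library were tried as alternatives. Gene positions are from GENCODE vM21.

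The comparison, the gene lists and the naming rule were chosen with earlier results of these data known. The rule named the 12 called genes with the largest change in each direction at a mean log2 CPM of at least 1 without overlap, up to 4 called genes of each list or else the gene with the smallest p, and a short fixed set with Il6, Ptx3, Fos and Col16a1. P-values measure the spread between these libraries, which may be partly technical.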

Additional observations from a re-analysis of the deposited data

Results flagged for a closer look

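In 8 of 132 genes and summed marker lists looked at, 1 of the 4 day 26 shams stood apart from the other 3. The gap to its nearest neighbour, as a share of the group's range, exceeded Dixon's 95% critical value for 4 samples; chance alone gives this in about 1 in 20 groups. Replicate 4 was the high library for 4 of the 8: Rplp2, a ribosomal stalk protein gene (share 0.952, 281 CPM against 207 to 210 CPM), tenocyte markers (0.884, 1882 CPM), Cxcl13 (0.864, 73.5 CPM against 39.3 to 43.9 CPM) and the pseudogene Gm1821 (0.837, 5.40 CPM against 0.979 to 1.70 CPM). Replicate 2 was high for myofibre markers (0.913, 133 CPM) and for Tnnt3, a troponin of fast muscle fibres (0.841, 20.6 CPM against 10.9 to 12.4 CPM). Replicate 1 was high for Cdkn2d, a cell cycle inhibitor gene (0.92, 28.9 CPM against 23.8 to 24.2 CPM), and replicate 3 for Fcer1g, a myeloid receptor subunit gene (0.864, 0.783 CPM against 0.546 to 0.578 CPM).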

How the results depend on the processing

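The direction of all 80 called genes held under each alternative tried, while the number of calls did not. DESeq2 called 323 genes, 233 higher and 90 lower at day 26, and a fit of all 20 libraries called 5, all higher and 0 lower. That wider fit held 3 calls in the NF-κB list. It held 0 in the chemokine, immediate-early, IL-6 and STAT3, and hyaluronan lists. The number called lower, 14 in the comparison as reported, was 28 with limma-voom, 9 with DESeq2 size factors, 22 without a filter on low counts and 1 with the endothelial covariate. Leaving out 1 library at a time gave 6 to 208 calls, 6 to 153 higher and 0 to 55 lower; the lowest came without day 21 replicate 1 and the highest without day 26 replicate 4. The same omissions gave 1479 to 2878 calls between days 26 and 14 and 1665 to 2924 between days 21 and 14. Same-numbered libraries did not deviate together (r = -0.0226, 0.0207 and -0.00125), so the numbers do not pair them. A replicate block gave 220 calls, 155 higher and 65 lower. Only day 26 has a replicate 4, so the block fitted that library by a term of its own. The block is therefore close to the omission of that library, which gave 208 calls, 153 higher and 55 lower. The cause of the other shifts was not tested. Hspa1a, 0.02 as reported, was -0.16 with limma-voom and -0.070 with the block, and -0.18 to 0.14 over the omissions, below 0 without day 26 replicate 2 (-0.18), day 26 replicate 4 (-0.017) and day 21 replicate 3 (-0.069). Ly6a, 0.07 as reported, was -0.042 with the block and -0.00944 with the endothelial covariate, and -0.042 (without day 26 replicate 4) to 0.13 over the omissions. Alas2, -0.27 as reported, was -1.01 to 0.57 over the omissions, above 0 without day 26 replicate 3 (0.064) and day 21 replicate 2 (0.57). With 3 libraries at day 21, adjusted p-values near 0.05 rest on few residual degrees of freedom.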
